A study of Mus musculus with 3 samples.

Results

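The genes described here act in mitosis and on the spindle: 54 genes of the 22457 measured, taken as a list of gene names with no threshold on a measured value. They were grouped by role into proliferation markers and transcription factors, mitotic entry cyclins, kinases and phosphatases, the Aurora kinases with the chromosomal passenger complex, the spindle checkpoint, centromere and kinetochore, kinesins, spindle assembly factors, cytokinesis, separase with securin, and condensin. The material was polyadenylated RNA of primary Treg cells (regulatory T cells, a CD4 lineage that depends on Foxp3 and suppresses immune responses), taken from a male adult mouse source at 4 months of age. The 3 libraries, called libraries 1, 2 and 3 after their technical replicate numbers, come from 1 biological replicate and from fragments sheared to between 100 and 300 in size. These libraries make up a single group without a genotype or treatment contrast, so nothing here measures the spread between animals, and every p-value compares libraries, not conditions. Library totals were 3316275, 3079004 and 2782259 counts in libraries 1, 2 and 3, and 3 counts, the limit that a count of 0 allows, equal 0.905, 0.974 and 1.08 CPM (counts scaled to 1e6 per library). All 8 Treg identity genes checked (Foxp3, Il2ra, Ctla4, Ikzf2, Tnfrsf18, Cd4, Cd3e and Cd3g) were detected, with 407 to 448 counts for Foxp3 in each library.

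Many of these products are made anew in each cell cycle. Cyclin B with the kinase Cdk1 drives entry into mitosis, condensin and topoisomerase II compact the chromosomes, kinesins and spindle factors build the spindle, and kinetochores attach chromosomes to it. The spindle checkpoint holds the anaphase promoting complex (APC/C) back until all chromosomes are attached; Cdc20 then activates it, securin is destroyed and separase cuts cohesin. Transcription of many of these genes peaks in G2 and mitosis, under MuvB complexes that contain the Myb family member Mybl2 and the forkhead factor Foxm1, and it is repressed in resting cells. Peripheral Treg cells in mice are known to contain a larger cycling fraction than other CD4 T cells. In bulk RNA, fewer cycling cells and less RNA per cycling cell cannot be told apart.

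All 54 genes were detected, at 1 CPM or more in every library, and all 54 also passed 10 CPM in every library. Their counts summed to 42862, 36465 and 33998, which was 1.29% of the counts in library 1 (exact 95% binomial interval 1.28 to 1.30), 1.18% in library 2 (1.17 to 1.20) and 1.22% in library 3 (1.21 to 1.23). Library 1 therefore had the highest share. None of the 3 intervals overlapped another, and they cover counting error only. The median gene of the 54 stood at 152.5 CPM, beside a median of 45.6 CPM over the 10611 genes detected, and 50 of the 54 were above that median. Scaled to coding length, the median was 85.4 CPM per coding kilobase, beside 30.7 over 10542 detected genes with a coding length, and 45 of 54 were above it. The levels covered a wide range, from 9.46 CPM per coding kilobase for Mybl2 to 330 for Smc4. Values with ± below are the mean and SD over the 3 libraries (n = 3). Genes are compared with each other per coding kilobase unless another scale is named. Some orders within roles change per kilobase of all annotated exons.

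**Figure D1:**
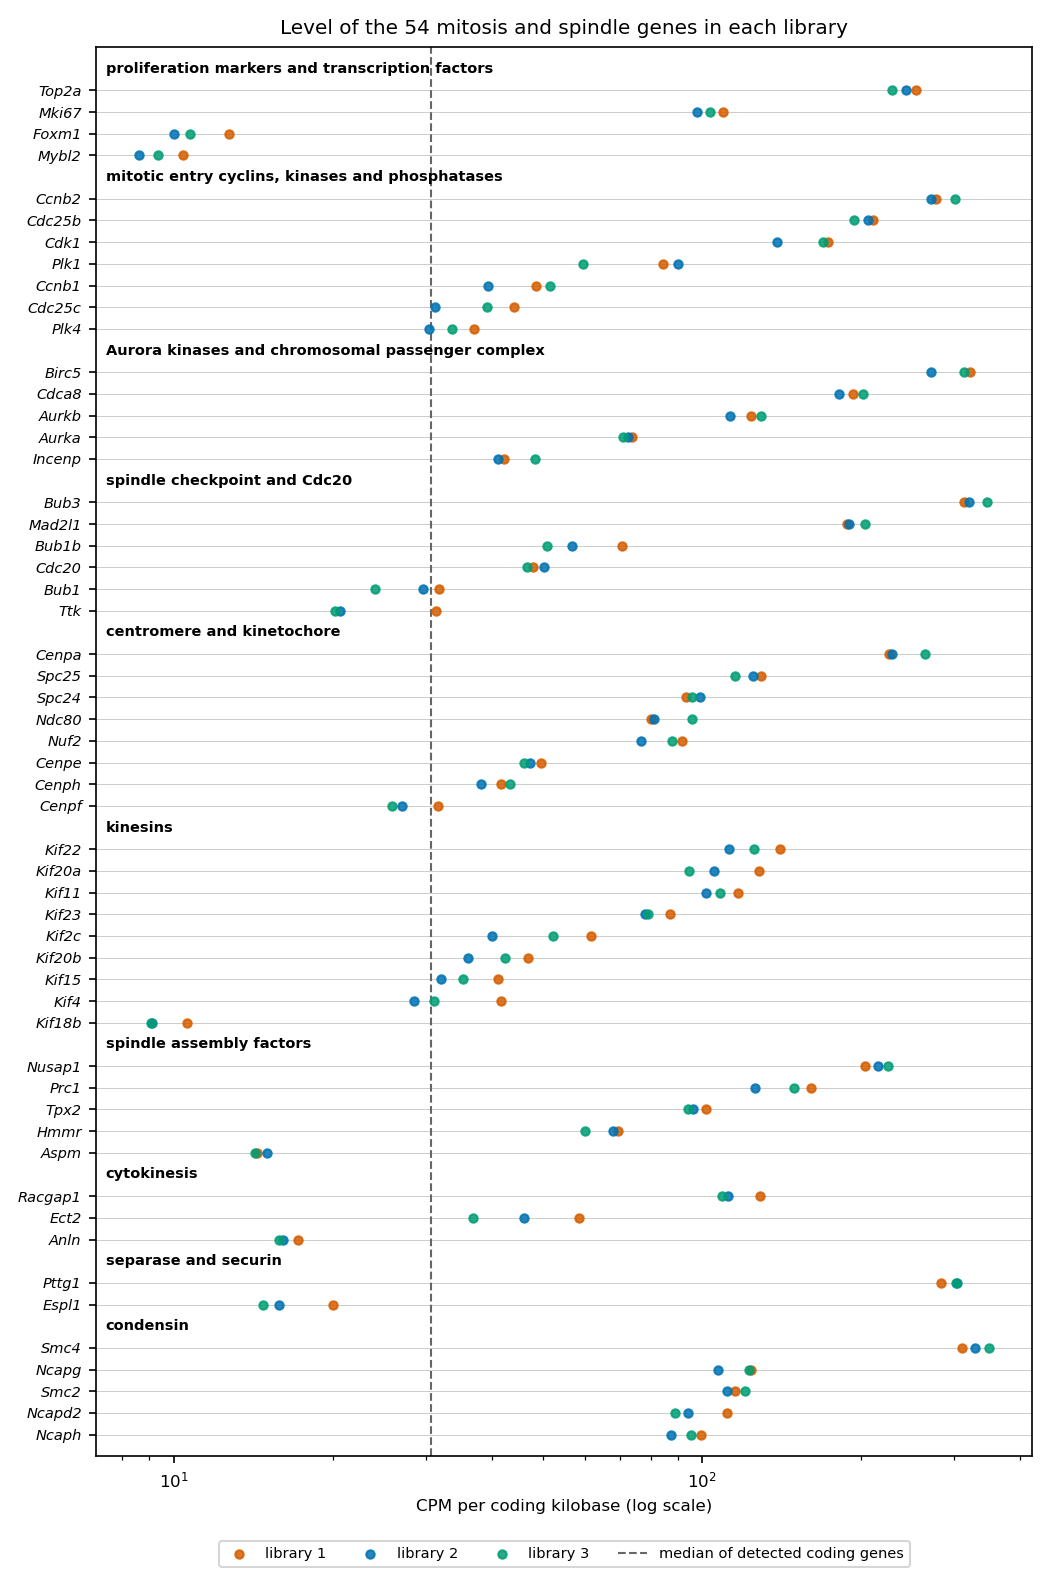
CPM per coding kilobase (horizontal, log scale) of each of the 54 genes, grouped by role, with 1 point for each library and a dashed line at the median of 30.7 for all detected coding genes. Mybl2, Kif18b, Foxm1, Aspm, Anln, Espl1, Ttk, Cenpf and Bub1 have means left of the line.

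Among the proliferation markers and transcription factors, the 2 chromosome proteins stood far above the 2 transcription factors. Top2a, the mitotic topoisomerase II (chromosome 11, 98992943 to 99024189, minus strand, GRCm38), had 3862, 3425 and 2918 counts in libraries 1, 2 and 3 and a level of 242 ± 12.6 CPM per coding kilobase. Mki67, whose product Ki-67 coats mitotic chromosomes and is the usual antigen for cycling cells (chromosome 7, 135689784 to 135716361), had 3457, 2874 and 2747 counts and 104 ± 5.72 CPM per coding kilobase. Both were highest in library 1, by 1.11-fold and 1.12-fold over the lowest library. Foxm1 had 96, 70 and 68 counts and 11.2 ± 1.41 CPM per coding kilobase, and Mybl2 had 77, 59 and 58 counts and 9.46 ± 0.914. These 2 factors were thus the third lowest and the lowest of the 54, at the percentiles 26.5 and 23.3 of all detected coding genes, but their counts were above 50 in every library. Mybl2 shares 43.6% of its coding 31-mers (stretches of 31 bases) with other genes, mostly the processed pseudogene Gm3320, so its count is uncertain.

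Of the mitotic entry genes, Ccnb2 and Cdc25b were the highest and Plk4 the lowest. Ccnb2, a B-type cyclin (chromosome 9, 70407692 to 70421547, minus strand), had 1097, 994 and 997 counts and 283 ± 15.6 CPM per coding kilobase. Cdc25b, a phosphatase that removes the inhibitory phosphates from Cdk1 (chromosome 2, 131186949 to 131198497), had 1236, 1122 and 956 counts and 203 ± 8.46 CPM per coding kilobase. Plk4, the kinase of centriole duplication, had 344, 263 and 263 counts and 33.7 ± 3.26 CPM per coding kilobase. Cdk1 itself stood at 160 ± 19.1 CPM per coding kilobase, with 512, 380 and 420 counts and its lowest CPM in library 2. Cdk1 differed between the libraries by the chi-square test described below, which does not set library 2 against the others. Cdc25c, a second mitotic Cdc25 phosphatase, was lower, at 38.1 ± 6.50 CPM per coding kilobase from 204, 134 and 152 counts.

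The other B-type cyclin, Ccnb1 (chromosome 13, 100778650 to 100786570, minus strand), was counted at 207, 156 and 185, or 46.4 ± 6.37 CPM per coding kilobase, well under Ccnb2. Its count cannot be read as its level. Of its coding 31-mers, 87.6% occur in other genes and 75.2% in the processed pseudogene Ccnb1-ps (chromosome 7, 42105899 to 42107185, minus strand), which has no row in the tables analysed here. How reads with several matches were counted is not given in the sources used here. Over 1287 aligned bases, Ccnb1 and the pseudogene are identical at 1277 (99.2%). A stretch of 90 coding bases with its 1 difference in capitals (G204A, counted from 1 at the A of the start codon, GENCODE M21) shows how alike they are:
Ccnb1: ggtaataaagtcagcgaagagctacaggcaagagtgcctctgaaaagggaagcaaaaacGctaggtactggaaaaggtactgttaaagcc
Ccnb1-ps: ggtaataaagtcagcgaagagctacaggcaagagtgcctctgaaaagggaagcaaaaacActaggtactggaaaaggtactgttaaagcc

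The Aurora kinases and the chromosomal passenger complex correct faulty attachments at centromeres, and the complex later moves to the midzone. All 5 genes were above the median of detected coding genes. Birc5 (survivin; chromosome 11, 117849251 to 117855743) had 473, 370 and 387 counts and 302 ± 27.2 CPM per coding kilobase, and 10.2% of its coding 31-mers are shared. Cdca8 (borealin) had 651, 571 and 571 counts and 192 ± 9.71 CPM per coding kilobase. Incenp, the scaffold of the complex, was lowest, with 370, 334 and 354 counts and 43.8 ± 3.81. The kinases were in between: Aurkb, the catalytic subunit of the complex, at 122 ± 8.26 and Aurka, the centrosome and spindle pole kinase, at 72.3 ± 1.28 CPM per coding kilobase. Aurka had the steadiest CPM of all 54 genes, with 305, 279 and 247 counts and a highest to lowest ratio of 1.04.

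Within the spindle checkpoint, Bub3 and Mad2l1 stood above the kinases per coding kilobase. Mad2l1 has 615 coding and 8390 exon bases. Per kilobase of all annotated exons it stood at 14.2 CPM, under Bub1b at 43.8 and Bub1 at 20.8 and above Ttk at 12.2. Bub3 stayed above the kinases on that scale, at 50.8. Bub3, the adaptor that brings Bub1 and Bub1b to kinetochores (chromosome 7, 131560222 to 131571895), had 1130, 1076 and 1051 counts and 326 ± 17.7 CPM per coding kilobase. Mad2l1, which holds Cdc20 in its inactive state, had 384, 359 and 348 counts and 194 ± 8.37, with 27.5% of its coding 31-mers shared. Ttk, the Mps1 kinase that starts the checkpoint signal, was lowest, with 259, 158 and 140 counts and 24.1 ± 6.33. In between, Bub1b stood at 59.3 ± 10.1, Cdc20 at 48.2 ± 1.78 and Bub1 at 28.5 ± 3.97 CPM per coding kilobase. Cdc20, the activator that the checkpoint inhibits, shares 32.1% of its coding 31-mers with other genes.

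At centromeres and kinetochores, Cenpa, the histone H3 variant that marks the centromere (chromosome 5, 30666777 to 30674830), had 464, 437 and 455 counts and 239 ± 21.1 CPM per coding kilobase. Spc25, a subunit of the Ndc80 complex that binds microtubules, had 331, 296 and 248 counts and 123 ± 7.02. Cenpf, a large protein of the outer kinetochore, was lowest per length, with 953, 758 and 654 counts and 28.2 ± 3.03 CPM per coding kilobase. The other subunits of that complex were lower than Spc25: Spc24 at 96.0 ± 2.80, Ndc80 at 85.6 ± 8.87 and Nuf2 at 85.2 ± 7.84. Ndc80 and Nuf2 differed by less than their SDs. Ndc80 shares 18.8% of its coding 31-mers with other genes.

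The 9 mitotic kinesins, motors that slide, depolymerise or carry along spindle microtubules, ran from 9.58 to 126 CPM per coding kilobase. Kif22, which pushes chromosome arms away from the poles (chromosome 7, 127027729 to 127042471), had 964, 717 and 721 counts and 126 ± 14.0. Kif20a, which carries the passenger complex to the midzone, had 1168, 889 and 723 counts and 109 ± 17.2. Kif11, which slides the spindle poles apart, was level with it at 109 ± 7.48 from 1222, 990 and 948 counts. Kif18b, a depolymerase of astral microtubules, was lowest, with 88, 70 and 63 counts and 9.58 ± 0.888 CPM per coding kilobase. Exons of Kif20a overlap those of Cdc23, an APC/C subunit on the opposite strand, over 29.3% of the Kif20a exon bases. Cdc23 was counted at 502, 403 and 358, and since strand use is not given in the sources used here, reads from the shared part cannot be told apart.

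Spindle assembly factors were led by Nusap1, a microtubule bundler near chromosomes, with 863, 850 and 802 counts and 215 ± 11.0 CPM per coding kilobase. Prc1, the crosslinker of the midzone (chromosome 7, 80294450 to 80316259), had 999, 727 and 779 counts and 145 ± 17.7. Aspm, a spindle pole protein with a very long coding sequence, was lowest at 14.5 ± 0.405 from 446, 433 and 372 counts. In CPM not scaled for length, Aspm would rank with Cenpa, at 136 ± 3.79 against 148 ± 13.1, although it is far lower per coding kilobase. For cytokinesis, Racgap1, the GTPase activating subunit of centralspindlin, had 822, 664 and 585 counts and 117 ± 10.6 CPM per coding kilobase. Its partners in furrow formation were lower: Ect2, the exchange factor for RhoA, at 47.1 ± 10.8 and Anln (anillin) at 16.4 ± 0.729, the latter from 201, 175 and 155 counts.

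The separase and securin pair was unequal. Pttg1, the securin that keeps separase inactive (chromosome 11, 43420250 to 43426251), had 602, 598 and 539 counts and 296 ± 11.2 CPM per coding kilobase. Espl1, separase itself, had 423, 310 and 261 counts and 16.9 ± 2.80. The condensin group held the gene with the highest counts. Smc4, a core subunit shared by both condensins (chromosome 3, 69004738 to 69034623), had 3978, 3908 and 3756 counts, 1273 ± 75.3 CPM and 330 ± 19.5 CPM per coding kilobase, the highest of the 54 on both scales. Ncapg, a condensin I subunit, had 1238, 993 and 1029 counts and 118 ± 9.42 CPM per coding kilobase; Ncaph, the kleisin of condensin I, was lowest with 734, 599 and 591 counts and 94.0 ± 6.12. Smc2, the obligate partner of Smc4, stood at 116 ± 4.63, under Smc4 by far more than the SDs. Smc4 and Bub3 differed by less than their SDs per coding kilobase, and so did Birc5 and Pttg1 after them.

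Related genes that were not among the 54 were also present. All 60 further mitotic genes listed (such as Ube2c at 249 ± 7.14, Cdca3 at 223 ± 14.2 and Iqgap3, the lowest, at 5.98 ± 1.43 CPM per coding kilobase) were detected, with a median of 39.6 CPM per coding kilobase. All 15 APC/C genes were detected (median 68.4), from Anapc11 at 357 ± 28.6 and Anapc13 at 277 ± 24.5 down to Cdc27 at 39.6 ± 4.55. All 10 cohesin genes were detected (median 73.1), from the core subunits Smc1a at 152 ± 3.70 and Stag2 at 132 ± 12.3 down to the release factor Wapl at 41.2 ± 3.10. Genes of DNA replication were the highest list, with a median of 120 CPM per coding kilobase over 20 genes, all detected: the ribonucleotide reductase subunit Rrm2 reached 399.9 ± 23.6, the helicase subunit Mcm6 269.7 ± 16.8, and Mcm10 was lowest at 26.5 ± 8.39.

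Regulators of the cycle were more mixed. The 16 MuvB, pocket protein and E2F genes were all detected with a median of 20.4 CPM per coding kilobase, led by the histone chaperone Rbbp4 at 478 ± 26.8 and the pocket protein Rbl2 (p130), a repressor in resting cells, at 189 ± 24.2; E2f1 was lowest at 4.96 ± 1.17. Of 8 G1 cyclins and kinases, 7 were detected, with the D-type cyclin Ccnd2 at 526 ± 36.7 and Cdk4 at 306 ± 27.8 CPM per coding kilobase, while Ccnd1 had 1, 4 and 2 counts. Of 7 CDK inhibitors, 6 were detected, with Cdkn2d at 271 ± 32.2 and Cdkn2c at 104 ± 3.21. Cdkn1c had 3, 2 and 0 counts. Transcripts of inhibitors and pocket proteins were therefore found in the same bulk RNA as the mitotic genes, which does not say whether they were in the same cells.

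Paralogues with roles outside somatic mitosis ranged from 0 counts to levels above the median of 30.7 for detected coding genes, which Plk3, Top2b, Kif2a and Kif5b passed. Ccnb3, an oocyte and testis B-type cyclin, Aurkc, the meiotic Aurora kinase, and Plk5, a further Polo-like kinase, had 0 counts in every library, which allows up to 0.905, 0.974 and 1.08 CPM. Aurkc shares 85.3% of its coding 31-mers with other genes, so its 0 says little. Smc1b, the meiotic cohesin subunit, had 1, 3 and 6 counts. Cdc25a, which acts earlier in the cycle, had 103, 67 and 71 counts and 16.8 ± 3.01 CPM per coding kilobase. The stress-responsive kinases Plk2 and Plk3 had 64, 23 and 57 counts and 205, 187 and 195 counts, or 7.70 ± 3.52 and 33.0 ± 2.63. Top2b, the topoisomerase II that non-dividing cells also make, had 923, 872 and 806 counts and 58.7 ± 1.18 CPM per coding kilobase, under Top2a. Myb, the proto-oncogene of blood progenitors, had 145, 113 and 113 counts and 17.8 ± 1.55, and Mybl1 had 14, 11 and 12 counts and 1.77 ± 0.177. Of 15 further kinesins, mostly of intracellular transport and called transport kinesins here, 11 were detected. Over the 15 the median was 4.70 CPM per coding kilobase, beside 51.3 for the mitotic kinesins. Kif5b alone, a conventional kinesin, reached 147 ± 7.64. The 15 include Kif2a, a paralogue of the mitotic Kif2c, at 32.3 ± 2.34.

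**Figure D2:**
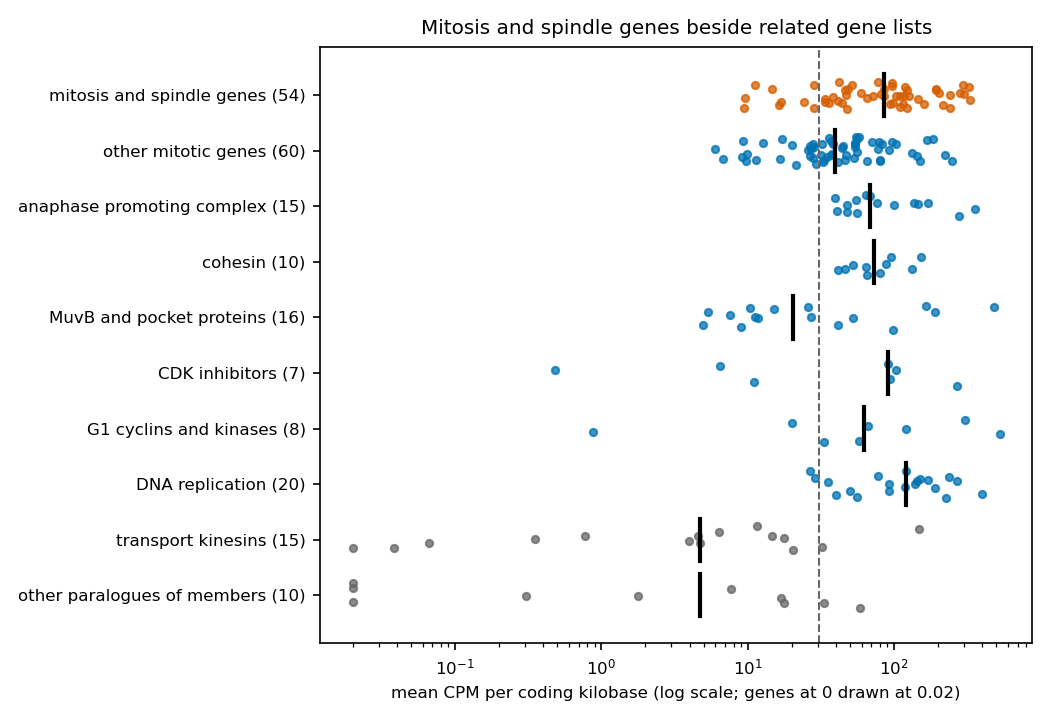
Mean CPM per coding kilobase (horizontal, log scale) of each gene in the 54 mitosis and spindle genes, in 7 lists of the cell cycle and in 2 lists of paralogues, with a black bar at each list's median and a dashed line at 30.7, the median of detected coding genes. The replication list has the highest median, 120, followed by the CDK inhibitors at 91.4 and the mitosis and spindle genes at 85.4, and transport kinesins have a median of 4.70.

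The promoters of these genes share sequence features that the list did not use. Repression in resting cells and activation in G2 are known to act through the cell cycle genes homology region (CHR, TTTGAA or TTCGAA), which MuvB complexes bind, together with CCAAT boxes bound by NF-Y. Both motifs were searched on both strands in RefSeq promoter windows (GRCm38.p6) from 250 bases before to 50 after the start site. Matches of the 2 motifs can share an end base. A window was found for 46 of the 54 genes, with 49 start sites in all. A CHR match occurred in 77.6% of these 49 windows, beside 19.2% of all 32851 windows and 14.3% of the 10681 windows of detected genes. A CCAAT match occurred in 73.5%, beside 37.4% and 38.1%. Both occurred together in 67.3%, beside 7.52% and 5.79%.

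Windows of 5 genes are printed from 120 bases before to 25 after the start, in the direction of transcription, to show the arrangement. They are the genes with the highest level per coding kilobase that hold both motifs, and capitals mark CHR and CCAAT matches on either strand (ATTGG is CCAAT, and TTCAAA is TTTGAA, on the other strand). They are Bub3 (chr7:131560250-131560394, plus strand), Ccnb2 (chr9:70421530-70421674, minus strand), Top2a (chr11:99024165-99024309, minus strand), Cenpa (chr5:30666766-30666910, plus strand) and Cdc25b (chr2:131186828-131186972, plus strand).
Bub3: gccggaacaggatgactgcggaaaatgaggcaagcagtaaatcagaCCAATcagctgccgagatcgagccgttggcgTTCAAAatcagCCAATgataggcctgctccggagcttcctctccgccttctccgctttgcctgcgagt
Ccnb2: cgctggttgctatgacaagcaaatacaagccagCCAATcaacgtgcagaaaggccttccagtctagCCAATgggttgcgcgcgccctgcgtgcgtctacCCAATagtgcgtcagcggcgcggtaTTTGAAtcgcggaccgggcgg
Top2a: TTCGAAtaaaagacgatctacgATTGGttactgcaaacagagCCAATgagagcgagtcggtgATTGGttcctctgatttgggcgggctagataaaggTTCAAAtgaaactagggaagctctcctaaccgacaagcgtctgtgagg
Cenpa: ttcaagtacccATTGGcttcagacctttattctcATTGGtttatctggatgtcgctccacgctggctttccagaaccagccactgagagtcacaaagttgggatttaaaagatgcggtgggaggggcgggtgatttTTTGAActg
Cdc25b: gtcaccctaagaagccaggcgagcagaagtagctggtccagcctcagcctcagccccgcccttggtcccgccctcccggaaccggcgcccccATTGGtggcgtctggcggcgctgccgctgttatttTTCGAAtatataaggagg

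In Bub3 a CHR match begins 43 bases before the start, between CCAAT matches at -74 and -32. In Ccnb2 there are 3 CCAAT matches at -87, -54 and -21, and the CHR begins at base 5 after the start. In Cenpa and Cdc25b the CHR also follows the start, at bases 17 and 8. Top2a holds 3 CCAAT matches and 2 CHR matches in the printed stretch, the nearest CHR at -23.

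The same places recurred over the other genes. A CHR match began within the first 50 bases after the start in 46.9% of the windows of the 54 genes, beside 2.46% of all windows, and in the 50 bases before it in 22.4%, beside 2.97%. CCAAT matches lay upstream, at -50 to -1 in 46.9% (9.03% of all windows) and at -100 to -51 in 40.8% (12.5% of all). In all 33 windows with both motifs, a CCAAT match began upstream of a CHR match, as it did in 1318 of the 2472 such windows among all promoters. The nearest upstream CCAAT began a median of 32 bases before the CHR (quartiles 24 and 44), beside 58 (26 and 105) in all promoters. This spacing was looked at after the printed windows were seen.

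By role, CHR matches were found for all 8 kinesins with a window, all 3 cytokinesis genes and 5 of 6 checkpoint genes, but for only 4 of 7 centromere and kinetochore genes. Neither motif was found in the windows of Mybl2, Plk4, Birc5, Mad2l1, Nuf2, Nusap1, Pttg1 and Ncaph. The 35 genes with a CHR match had a median of 81.2 CPM per coding kilobase and the 11 without had 85.2, while the 30 with both motifs had 100.8 and the other 16 had 49.5, given as a description. Other mitotic genes had a CHR match in 59.6% of 57 windows. Replication genes had one in 16.7% of 18 windows, near the background, but a CCAAT match in 72.2%, and transport kinesins had a CHR match in 7.14% of 14 windows. A match is a stretch of letters and was not measured as a bound site.

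**Figure D3:**
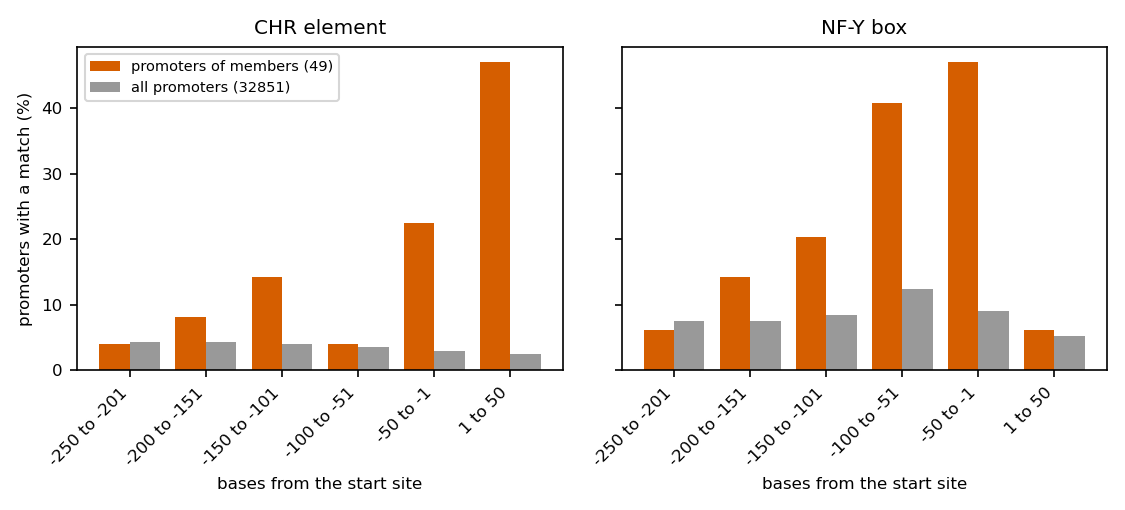
Share of promoter windows (vertical, percent) with a CHR element (left) or an NF-Y box (right) whose match begins in each 50-base bin, by distance from the start site, for the 49 windows of the mitosis and spindle genes and for all 32851 windows. The CHR bars of the 54 genes are highest just after the start, at 46.9% against 2.46%, and the NF-Y box bars in the 100 bases before it.

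Kinesins, checkpoint kinases, Ect2 and several condensin genes differed between the libraries, mostly with library 1 highest. Each gene's counts were compared with the library totals by a chi-square test with Benjamini-Hochberg adjustment over 10043 genes with 30 or more summed counts; this test allows for counting noise only. Of the 54 genes, 24 differed between the libraries (44.4%), beside 22.7% of all genes tested and 26.9% of the 7234 genes with at least as many counts as the least counted of the 54. Library 1 was the highest in 21 of these 24 (38.9% of the 54), beside 7.61% of all genes tested and 9.5% of the genes with comparable counts. Over all 54 genes, differing or not, library 1 was highest in 36 (66.7%), beside 30.6% of the genes with comparable counts. That count of 36 was the same with TMM or DESeq2 scaling. Without library 1 in the test 7 of the 54 differed (13.0%), beside 13.1% of all genes tested, so that among libraries 2 and 3 the share was near the background. Without library 2, 14 differed (25.9%), beside 15.3%, and without library 3, 18 (33.3%), beside 9.43%. The difference between the share of the 54 and the background was not tested. By edgeR's quasi-likelihood test of each library against the other 2, which adds the spread between libraries to counting noise, 1 of the 54 passed, beside 1.31% of 10411 genes. The other genes named as differing below are therefore called against counting noise alone.

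Ect2 had the largest range. Its level was 164 CPM in library 1, 129 in library 2 and 104 in library 3, a ratio of 1.58 from highest to lowest (chi-square adjusted p = 4.6e-08), and the exact 95% Poisson intervals of libraries 1 and 3, 151 to 178 and 91.9 to 116 CPM, did not overlap. Ttk stood at 78.1, 51.3 and 50.3 CPM in the same order (adjusted p = 5.7e-05), so library 1 was high and the other libraries were level. Kif2c, the depolymerase that frees faulty attachments, had 134, 86.7 and 113 CPM (adjusted p = 4.9e-06), high in library 1 and low in library 2. Kif4, a chromosome-bound motor, had 154, 105 and 115 CPM (adjusted p = 1.7e-06), with library 1 again high. Bub1b had 222, 179 and 160 CPM (adjusted p = 2.2e-06). Kif20a had 352, 289 and 260 CPM and the smallest adjusted p of the 54, 9.7e-09.

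Among the called genes, library 1 was also highest for the rest of the 12 with the largest ratios, except Plk1. Cdc25c had 61.5, 43.5 and 54.6 CPM, Espl1 had 128, 101 and 93.8, and Bub1 had 101, 94.2 and 76.6. Kif20b and Kif15, motors of the midbody and of the spindle, had 253, 195 and 229 CPM and 181, 141 and 155 CPM. Their ratios lay between 1.28 for Kif15 and 1.41 for Cdc25c. Cdc25c and Bub1 were not called against genes of their own count density, nor Cdc25c without a count minimum, nor Bub1 within its class of coding length.

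Plk1, the kinase that acts from mitotic entry to cytokinesis (chromosome 7, 122159439 to 122169873), differed in another way. It had 152, 163 and 107 CPM from 505, 502 and 299 counts, so library 3 was low and libraries 1 and 2 were level within their intervals of 139 to 166 and 149 to 178 CPM. In edgeR's quasi-likelihood test, which here set library 3 against 2 technical replicates of the same sample, its log2 fold change was -0.57 (adjusted p = 0.037). That adjustment was over genes within this contrast, not over the contrasts of the 3 libraries. In 23.0% of its coding 31-mers Plk1 matches other genes, mainly the processed pseudogene Plk-ps1. Ndc80 and Smc4 were the 2 genes highest in library 3 that the chi-square test called, at 159, 161 and 191 CPM and at 1200, 1269 and 1350 CPM. Ndc80 was not called with TMM or DESeq2 scaling or within its class of coding length, and Smc4 was not called against genes of its own count density.

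**Figure D4:**
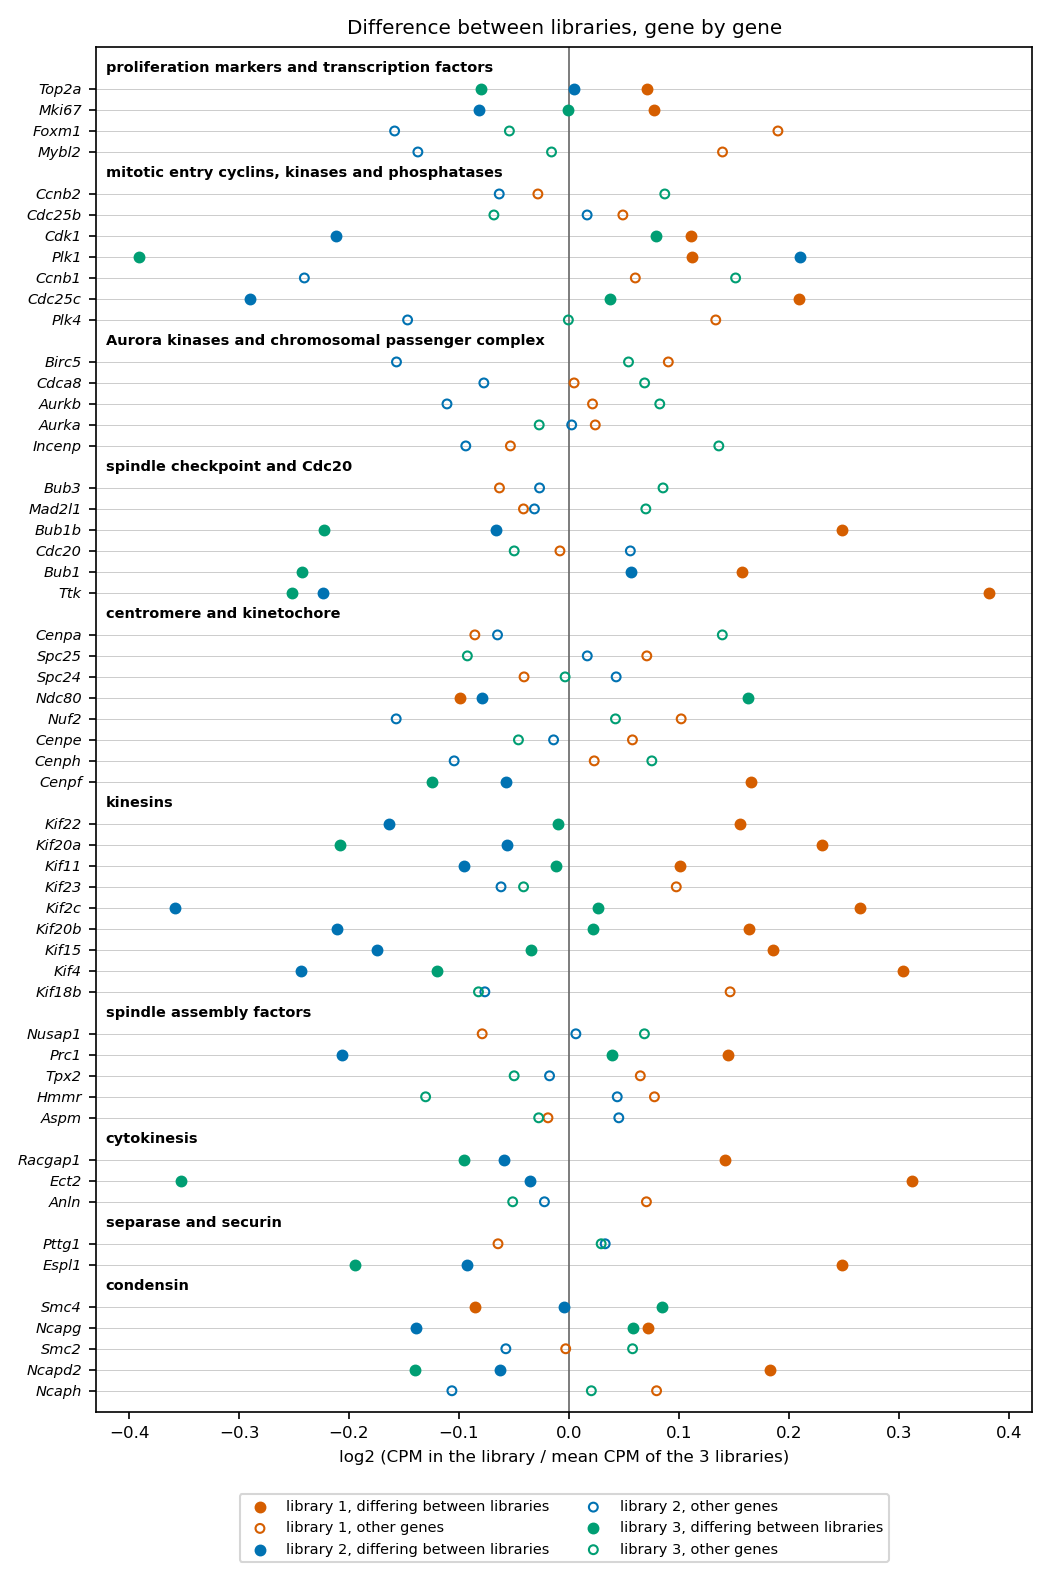
log2 ratio of the CPM in each library to the mean of the 3 libraries (horizontal) for each of the 54 genes by role, with filled points for the 24 genes that differed by the chi-square test and open points for the others. Library 1 is the rightmost point in 36 genes, among them all 9 kinesins and all 3 cytokinesis genes, and Plk1 has its lowest point in library 3.

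By role, 7 of 9 kinesins, 3 of 5 condensin genes, 2 of 3 cytokinesis genes, 3 of 6 checkpoint genes and 3 of 7 mitotic entry genes differed, against 0 of the 5 Aurora kinase and passenger complex genes (1 of 5 at an unadjusted chi-square p under 0.05, 0 by edgeR, and 1, Birc5, within classes of coding length) and 2 of 8 centromere and kinetochore genes. The summed kinesins stood at 2011, 1619 and 1723 CPM in libraries 1, 2 and 3, with library 1 above the others, while the summed passenger complex genes stood at 671, 622 and 694 CPM, with library 3 highest. In other lists of the cycle, 15 of 60 further mitotic genes differed (12 with library 1 highest), 13 of 20 replication genes (10 with library 1 highest), 4 of 10 cohesin genes (3 with library 1 highest) and 2 of 15 APC/C genes (1 with library 1 highest). Of the 7 CDK inhibitors, 6 had enough counts to be tested and 2 differed, both highest in library 3. Beside these counts, 22.7% of all genes tested differed, and 7.61% differed with library 1 highest. The shares that differed were near 22.7% for centromere and kinetochore genes and further mitotic genes, and lower for APC/C genes. With 6 genes tested, the share of the CDK inhibitors is not compared with 22.7%. Whether any list departs from the share over all genes was not tested.

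Coding length moved with this result. Over 7216 genes with comparable counts, the median log2 ratio of library 1 to the mean of libraries 2 and 3 was -0.10 for coding lengths up to 1000 bases and 0.09 for those over 4000. For the 54 genes it was -0.01 in the shortest class (8 genes) and 0.25 in the longest (9 genes). In the class from 2000 to 3000 bases the 14 genes had a median of 0.22, beside 0.08 for all genes of that class. Of the 54, 43 were above the median of all genes of their own length class. Across genes, which share the same libraries, Spearman's rho between this ratio and coding length was 0.41 over the 54 and 0.35 over all 7216 (Pearson's r with log2 length 0.37 and 0.30), given as a description.

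**Figure D5:**
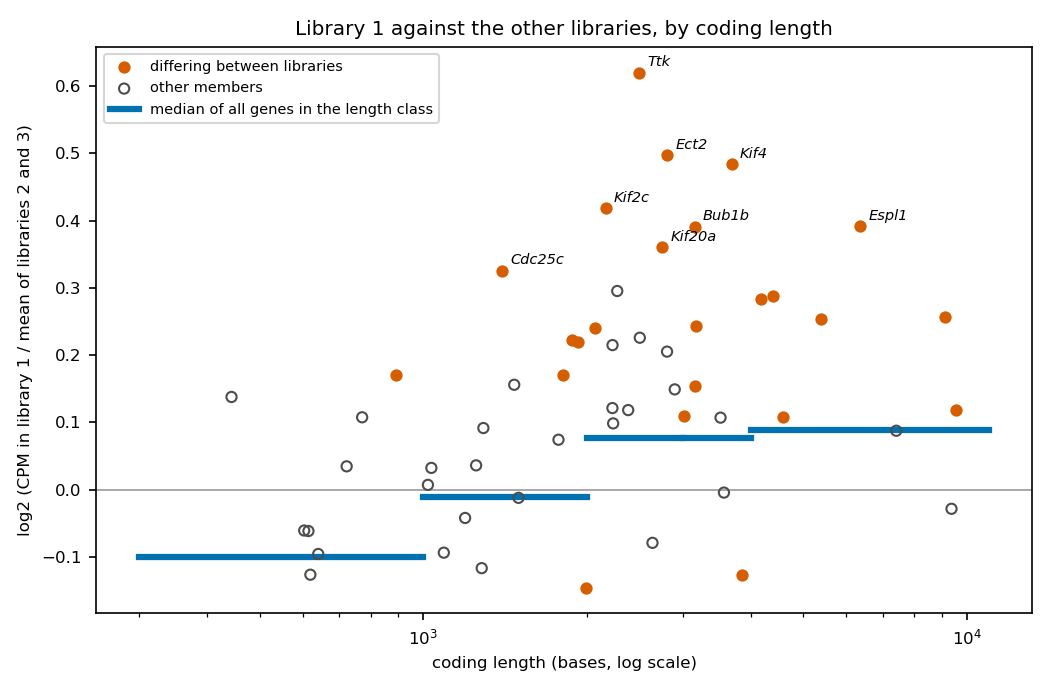
log2 ratio of the CPM in library 1 to the mean of libraries 2 and 3 (vertical) against coding length in bases (horizontal, log scale) for the 54 genes, filled where the chi-square test called them, with blue lines at the median of all genes in each length class. Ttk lies highest at 0.62, and 43 of 54 points lie above their class's line.

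When each gene was compared with the summed counts of genes of its own length class, an alternative chosen after the data were seen, 22 of the 54 differed, beside 19.3% of 9989 genes. Of these, 16 were highest in library 1, beside 5.84% of all genes, and library 1 was highest in 30 of the 54 in place of 36. What else in the libraries goes with coding length was not tested.

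Within the 54 genes, calls by the chi-square test also split by presence of a CHR match, which over all genes they hardly did. Of the 35 genes with a CHR match in their window, 21 differed between libraries, and of the 11 without, 0 did (3 at an unadjusted chi-square p under 0.05). By edgeR's test the counts were 1 and 0. Among all genes with comparable counts and a promoter window, 28.2% of the 1006 with a CHR match and 26.4% of the 4792 without one differed. Those of the 54 with a match were longer, with a median coding length of 2502 bases against 1290, and had a median of 1556 summed counts against 1151. Compared within classes of coding length, 18 of the 35 and 1 of the 11, Birc5, differed; Bub1, Cenpf, Top2a and Ndc80, all with a match, were then no longer called. The part of depth in this split was not tested.

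Cell type markers also differed, with the sums of some lists lowest in library 1 and those of others highest there. The 10 B cell markers summed to 70.3, 171 and 199 CPM in libraries 1, 2 and 3, and the 9 erythroid markers to 9.35, 15.9 and 34.5 CPM, both lowest in library 1; of the erythroid markers 3 of 9 were detected. The 8 monocyte and macrophage markers summed to 19.3, 56.5 and 28.0 CPM, with 2 of 8 detected. The sums of the 6 plasma cell markers, at 305, 292 and 245 CPM (3 detected), and the 6 thymocyte markers, at 134, 91.3 and 102 CPM (1 detected, Themis, nearly the whole sum), were highest in library 1. Most of the plasma cell sum was Prdm1, at 225, 204 and 140 CPM, and Xbp1, at 76.3, 79.9 and 73.7 CPM. In contrast, Jchain, at 1.81, 4.55 and 24.4 CPM, and Mzb1, at 0.905, 3.90 and 5.39 CPM, were lowest in library 1. Sdc1 had 1, 0 and 4 counts and Tnfrsf17 had 1, 0 and 0. Of the B cell markers 7 of 10 were detected, and Cd79b, with 148, 165 and 204 counts, was the highest, while Pax5 had 0, 1 and 1 counts. Of the germinal centre markers, Rgs13 had 0 counts in all libraries, Gcsam had 0, 0 and 1, S1pr2 had 49, 61 and 26, and Fas, which activated T cells also make, had 525, 586 and 499. The thymocyte genes Rag1, Rag2 and Ptcra had 0 in all libraries. The part of these cells in the differences between libraries was not tested.

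Sequence shared with other genes limits single values. In 13 of the 54, over 10% of the coding 31-mers occur in other genes: besides Ccnb1, Mybl2, Cdc20, Mad2l1, Plk1, Kif20a, Ndc80 and Birc5, these were Racgap1 (16.7%), Plk4 (12.6%), Kif2c (12.1%), Bub3 (11.2%) and Kif11 (10.8%). Exons of 11 genes overlap a gene on the opposite strand. After Kif20a, the largest overlap was in Kif4, with 15.1% of its exon bases shared with Pdzd11, counted at 239, 217 and 214. Smc4 was the only gene with 1 or more counts per coding base, at 1.00, and its raw counts of 3978, 3908 and 3756 differed less than the library totals did. Over all 379 genes with 1 to 1.8 counts per coding base the summed counts of libraries 2 and 3 were 0.969 and 0.911 of library 1, against 0.907 and 0.805 for genes under 0.2 counts per base. Against the summed counts of genes in its own density class, Smc4 was not called.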

How the data were processed

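The deposited values are whole-number counts per gene, 1 table per library with 22457 versioned Ensembl identifiers; per the notes the authors deposited with each table, reads were aligned to mm10 and annotated by GENCODE M4. Which aligner and counter were run, and how strand, duplicates and multiply matching reads were treated, is not given in the sources used here. Symbols, coordinates and lengths came from GENCODE M21 on GRCm38, the same assembly, and matched 22195 identifiers. Levels are CPM of the library total, without a pseudocount. The chi-square test of homogeneity used SciPy 1.17.1, 2 degrees of freedom and genes with 30 or more summed counts. The edgeR 4.0.16 test (quasi-likelihood, TMM, filterByExpr) set each library against the other 2. Both used Benjamini-Hochberg adjustment over all genes tested and a threshold of 0.05. For edgeR the adjustment was made for each library's contrast separately, and a gene passed if any of its contrasts did. Both tests were tried on data simulated with set changes in library 1 and counting noise only. That simulation cannot show how they behave under further spread between libraries. DESeq2 1.42.0 gave size factors as an alternative scaling. Nothing in the labels says that the libraries came from separate cells, so p-values compare these libraries only. Those of the chi-square test set the libraries against counting noise, and those of edgeR's test also allow for the spread between them. Intervals are exact at 95% and cover counting error only.

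The genes and the lists were chosen with earlier results of these data known. Named genes are, per role, the 2 highest and the lowest per coding kilobase, the 12 with the largest ratio between libraries among those called, all with over 10% shared 31-mers, the 2 highest and the lowest of each related list, and paralogues; Cdc23, Pdzd11 and others were named after their values were seen. Of 10 cell type lists, the germinal centre sum is not reported here, and the others not given above stood at 281 ± 31.5 CPM in sum (plasma cell), 109 ± 22.3 (thymocyte, nearly all Themis), 13.4 ± 7.99 (dendritic cell), 24.6 ± 6.71 (CD8 T cell), 3.68 ± 1.61 (NK cell) and 3153 ± 112 (Treg identity).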

Additional observations from a re-analysis of the deposited data

How the results depend on the processing

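All 54 genes stayed detected at 5 and 10 CPM, with TMM and DESeq2 scaling and without each library. The count of genes that differed between libraries was 24 and stayed between 21 and 24 under the other scalings, count minimums, density classes and length classes, but it was 1 by edgeR with filterByExpr and 1 without a filter, and it ranged from 7 without library 1 (beside 13.1% of all genes tested) to 18 without library 3 (beside 9.43%). The median level moved from 152.5 CPM to between 150 and 159 on leaving out a library. Per kilobase of all annotated exons in place of coding length it was 30.8, beside 10.3 for all detected coding genes on that scale, and on leaving out a library it was 85.3 to 88.8 per coding kilobase. Some orders within roles also changed per kilobase of all exons. Birc5, at 39.4, was then under Aurkb at 42.9, and Cenpa, at 25.3, was under Cenpe at 40.9. Mad2l1 was then under Bub1b and Bub1. The mean share of counts, 1.23%, was 1.11% without Smc4, the one gene at 1 or more counts per coding base, and 1.35% as a share of the counts of genes under that density; it was 1.20 to 1.26% on leaving out a library. CHR matches were found for 33 to 35 genes and CCAAT matches for 32 or 33 under the other windows and letters, and 21 genes had 2 or more CCAAT matches. No paired analysis was possible because there is only 1 group. With 2782259 to 3316275 counts per library, the genes of the 54 named as differing had 134 or more counts in each library. Cell type markers named as lowest in library 1 rest on fewer, with 6, 14 and 68 counts for Jchain and 3, 12 and 15 for Mzb1.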
